A study of Mus musculus with 8 samples.

Results

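The genes described here were chosen for their place in the genome. They are 40 genes listed as neighbours of Il15ra, which encodes the chain of the interleukin-15 receptor that binds the cytokine, and the question was whether genes beside a targeted locus were expressed at another level in the knockout cells. The list was applied through the gene symbols of the array platform, and 35 of the 40 genes had a probe, 50 probes in all among the 25697 on the array. Rbm17, Tubal3, Optn, Frmd4a and Dclre1c had none. In the mouse annotation GRCm38.p6, 34 of the 40 lay on chromosome 2, the chromosome of Il15ra, and 6 lay on chromosome 13, so the name neighbour fits only the 34. The 6 were Gdi2, Asb13, Tasor2, Net1, Calml3 and Tubal3, which are neighbours of the receptor gene in the human genome. Of the 34 genes on chromosome 2, 32 lay on the centromeric side of Il15ra and 2, Fbh1 and Ankrd16, on the telomeric side. The nearest, Fbh1, lay 0.009 Mb from Il15ra and the farthest, Nmt2, 8.38 Mb from it, with 11 genes within 2 Mb and 23 farther away.

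RNA came from primary hepatic stellate cells at passage 0, the retinoid-storing pericytes of the liver, which become myofibroblasts that lay down matrix once they are cultured. Cells from mice lacking Il15ra (IL15Ra-knockout, 4 samples) were compared with cells from wild-type mice (control, 4 samples). All mice were bought, are labelled female and 6 weeks old, and have the strain label B6/129 in both groups, and cells of both groups were cultured in medium with serum, with no further treatment named. Each sample was hybridised to 1 Illumina MouseRef-8 v2.0 array, and the labels leave unsaid whether each sample of a group is a different animal. The p-values therefore rest on the spread among the arrays of a group, and that spread could be technical.

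A gene that is disrupted in embryonic stem cells of one mouse strain is usually bred into another, and the chromosome on each side of the disrupted gene then keeps the sequence of the stem cell strain over a stretch that shrinks with each backcross. Genes in that stretch can differ between mutant and wild-type mice through strain variants in their regulatory sequence, and an array probe can also bind a variant transcript less well. A selection cassette left in a locus can likewise change the activity of genes beside it. The labels name the strains of the mixed background but not which alleles each mouse carried near Il15ra, and strain variants under the probes were not tested.

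Promoters are shown for 5 of the genes, the neighbour closest to the targeted locus and those on which the comparison below turns, so that the reference sequence of the region can be set beside the values. They are RefSeq windows of build GRCm38.p6, from 250 bases before the transcription start to 50 after it. Capitals mark 4 short motifs, each searched on both strands. The CCAAT box was searched as CCAAT. The GC box was searched as GGGCGG. The TATA box was searched as TATAAA. The core bound by ETS factors was searched as CCGGAA, and where it meets its own reverse complement the capitals run together.
Fbh1 (the neighbour closest to Il15ra, chr2:11777536-11777835, minus strand): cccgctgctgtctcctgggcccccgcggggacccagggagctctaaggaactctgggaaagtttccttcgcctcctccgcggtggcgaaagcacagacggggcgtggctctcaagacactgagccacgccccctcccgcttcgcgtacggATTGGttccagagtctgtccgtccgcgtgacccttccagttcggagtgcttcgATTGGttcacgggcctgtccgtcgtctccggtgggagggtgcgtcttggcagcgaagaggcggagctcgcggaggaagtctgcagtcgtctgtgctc
Atp5c1 (measured most precisely, chr2:10080383-10080682, minus strand): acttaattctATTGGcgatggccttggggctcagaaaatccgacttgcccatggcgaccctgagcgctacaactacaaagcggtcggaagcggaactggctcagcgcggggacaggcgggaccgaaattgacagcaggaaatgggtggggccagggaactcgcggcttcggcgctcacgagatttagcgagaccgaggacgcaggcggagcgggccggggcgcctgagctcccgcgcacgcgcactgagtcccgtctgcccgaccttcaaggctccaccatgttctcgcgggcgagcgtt
Nudt5 (head to head with Cdc123, chr2:5844784-5845083, plus strand): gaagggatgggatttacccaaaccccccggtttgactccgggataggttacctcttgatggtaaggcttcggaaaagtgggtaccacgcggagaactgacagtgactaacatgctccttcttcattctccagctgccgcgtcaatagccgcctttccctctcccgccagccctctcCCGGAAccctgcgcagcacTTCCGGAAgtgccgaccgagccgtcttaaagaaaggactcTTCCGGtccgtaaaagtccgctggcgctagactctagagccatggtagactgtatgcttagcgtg
Cdc123 (largest positive difference, chr2:5845128-5845427, minus strand): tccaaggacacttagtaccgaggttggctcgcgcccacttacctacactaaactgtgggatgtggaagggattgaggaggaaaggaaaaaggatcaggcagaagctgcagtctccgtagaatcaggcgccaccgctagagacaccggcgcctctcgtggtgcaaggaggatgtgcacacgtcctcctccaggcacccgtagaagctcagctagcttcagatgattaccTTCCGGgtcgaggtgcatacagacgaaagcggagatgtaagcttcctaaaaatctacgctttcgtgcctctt
Ccdc3 (largest negative difference, chr2:5137526-5137825, plus strand): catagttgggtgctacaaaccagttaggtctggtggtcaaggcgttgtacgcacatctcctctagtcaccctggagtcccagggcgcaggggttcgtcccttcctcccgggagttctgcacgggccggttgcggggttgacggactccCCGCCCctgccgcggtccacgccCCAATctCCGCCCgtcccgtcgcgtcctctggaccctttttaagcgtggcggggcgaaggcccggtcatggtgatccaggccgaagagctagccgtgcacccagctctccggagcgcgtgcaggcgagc

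The build is that of the C57BL/6J strain. Fbh1 and Ankrd16 are transcribed away from each other, and their windows shared 267 bases, so the Fbh1 sequence above also holds most of the Ankrd16 window. The windows of Atp5c1 and Kin shared 279 bases in the same way. Nudt5 and Cdc123 lie head to head in another way. By the window coordinates each is transcribed toward and past the start of the other, so their 5' ends overlap. Their windows shared 0 bases. The 5 windows had between 17 and 33 CG dinucleotides, against a median of 7 over all 32851 windows of the table. A CCAAT box stood in 34% of the 50 windows that belong to 37 of the 40 genes and in 37.4% of all windows, a GC box in 60% and 35.7%, a TATA box in 4% and 13.6%, and an ETS core in 22% and 14.9%. A match is a run of letters and not a site shown to be used.

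The arrays differed in how many probes were above background, that is, had a detection p under 0.05 against the negative-control beads of the same array. The number was between 7765 and 10516 on the knockout and between 6760 and 9961 on the control arrays, and knockout 1, knockout 4 and control 3 had the fewest. Of the 50 probes of the listed genes, between 18 and 25 were above background on a knockout array and between 17 and 23 on a control array. Of 10 stellate cell markers, 7 were measured, among them Des, Reln and Pdgfrb. Lrat, Hand2 and Lhx2 were not above background on any array. The 7 summed to between 23529 and 27210 linear units on the knockout arrays, against 14206 to 21402 on the control arrays. Their median log2 difference was -0.13, with 1 called higher and 1 lower, so the sum does not stand for each marker. All 6 macrophage markers with a probe were measured too, with Adgre1, Lyz2, Cd14 and Clec4f among them. They summed to between 29620.5 and 30697 linear units on the knockout arrays, against 28206 to 30656 on the control arrays. Those sums were above the stellate sums in both groups, but sums over different genes give no shares of cells. Values are therefore those of whole cultures. The mice are labelled female. Of 16 probes for Y-linked genes, 3 were above background on all 8 arrays, and this count alone does not settle the sex.

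The targeted gene gave no check of the labels. None of the 4 Il15ra probes was above background on any array, with a lowest detection p of 0.178. Their normalised log2 values lay between 4.64 and 4.77 on the knockout arrays and between 4.62 and 5.01 on the control arrays. The same held for the interleukin-2 receptor alpha gene Il2ra, the next gene on the centromeric side, at 4.97, 4.69, 4.73 and 4.75 in knockout 1 to 4, against 4.81, 4.72, 4.68 and 4.67 in control 1 to 4. Pfkfb3, a glycolytic regulator gene 0.151 Mb away, was above background on 1 knockout array and 1 control array and was not tested.

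No listed gene was higher or lower in the knockout cells by the test applied to all genes. A probe was kept when 4 or more of the 8 arrays had it above background, and this left 22 of the 50 probes (44%) and 16 of the 35 genes, against 36.7% of all probes. With limma and Benjamini-Hochberg adjustment over all 9433 kept probes, 0 of the 22 had an adjusted p under 0.05, 1 had an unadjusted p under 0.05, and at 0 of the 22 did the knockout and control values lie apart without overlap. Over all kept probes 50 passed the adjusted threshold (0.530%, with 0.233% higher and 0.297% lower), 6.31% had an unadjusted p under 0.05, and 5.02% did not overlap. The 0 of 22 is near that background and sets these genes apart from no others. Taking the brightest kept probe of each gene, 10 of the 16 had a log2 difference above 0 and 6 below 0 (62.5% above 0, against 55.4% of all 7361 genes measured). That split depends on the scaling, since with median scaling 4 lay above 0 and 12 below. The median difference of the 16 was 0.05, as was that of all genes, and the median size of the difference without its sign was 0.12, against 0.27 for all genes.

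**Figure D1:**
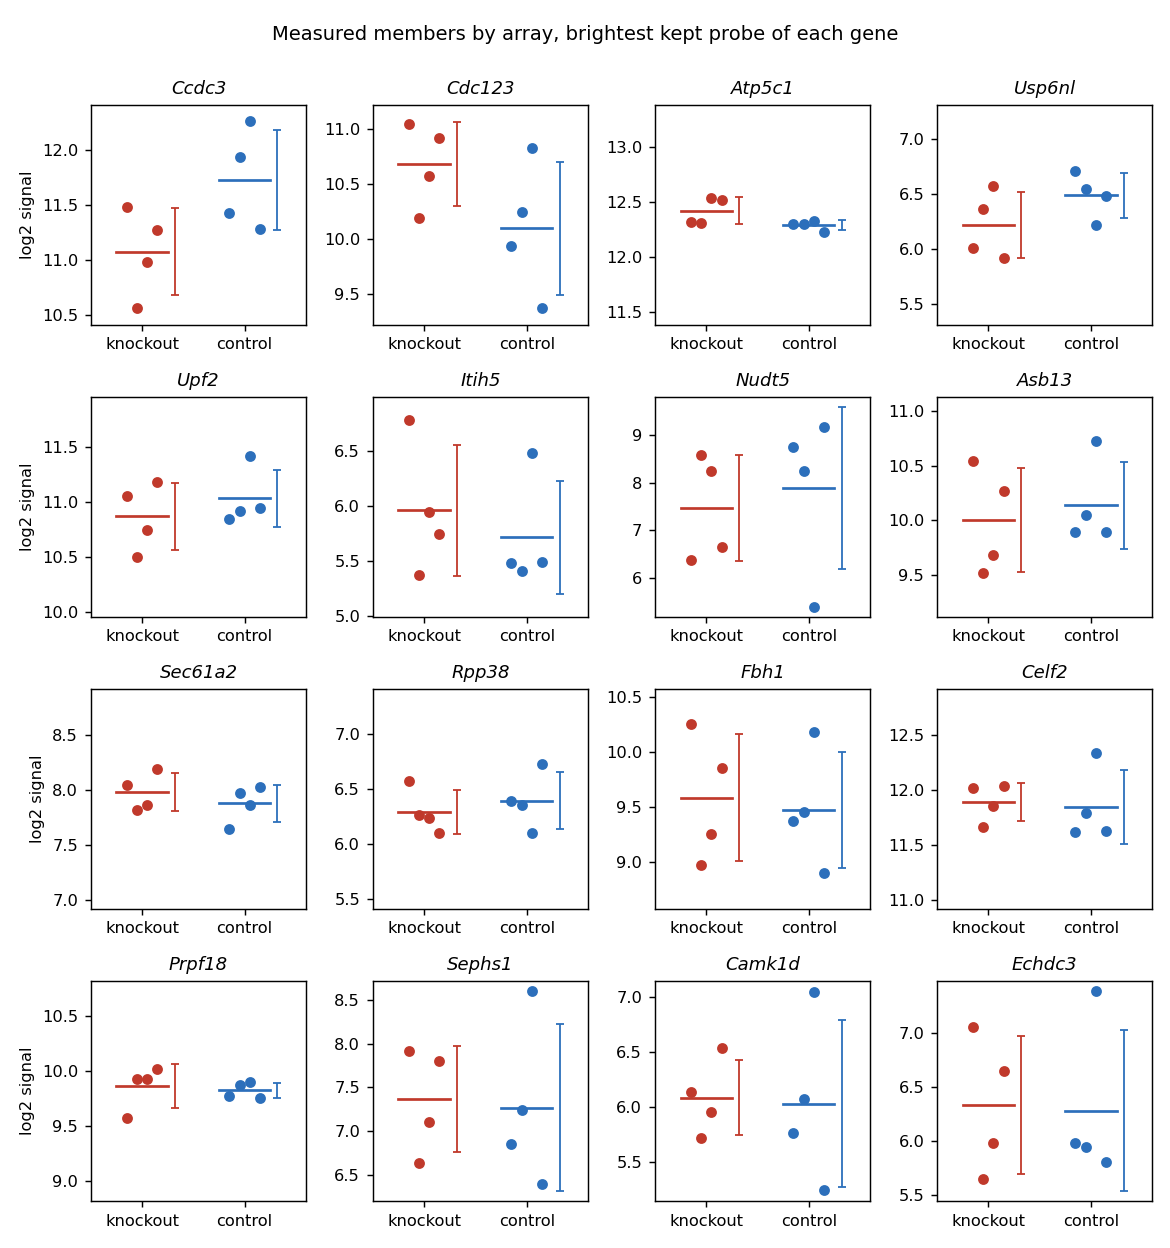
Normalised log2 signal (y axis) of the 16 measured genes on the brightest kept probe of each, with the 4 knockout arrays left of the 4 control arrays in every panel. Points are arrays from replicate 1 on the left to 4 on the right, horizontal lines are means and bars are SD (n = 4). Every panel spans at least 2 log2 units on an axis of its own, and in no panel do the groups lie apart.

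Ccdc3, which encodes a secreted protein known from fat and blood vessel cells, had the largest negative difference. Its log2 signal was 11.48, 10.56, 10.98 and 11.27 in knockout 1 to 4, against 11.43, 11.94, 12.26 and 11.28 in control 1 to 4. The 2 lowest control values lay inside the knockout range, and the other 2 control values were above all 4 knockout values. Knockout cells averaged 11.07 ± 0.39 and control cells 11.73 ± 0.45 (SD, n = 4 each), a log2 difference of -0.65 (standard error 0.27) and a 95% interval from -1.26 to -0.05, which is 1.57-fold lower in the knockout (limma adjusted p = 0.696). The difference was of similar size among the arrays with few detected probes and among the others, at -0.89 between knockout 1 and 4 and control 3, and at -0.78 between knockout 2 and 3 and control 1, 2 and 4. With each array's detected probes as a covariate the difference was -0.70 and passed (limma adjusted p = 0.0101), in a fit in which 7.10% of all probes passed, the lower ones making up 2.84% of all probes. Without knockout 1, knockout 4 and control 3 it was -0.74 and did not pass (limma adjusted p = 0.184). Of 6 markers of sinusoidal endothelium, Kdr and Cdh5 were above background on no array, and the 3 measured, Pecam1, Stab2 and Lyve1, summed to between 265 and 305 linear units on the knockout arrays, against 443 to 696 on the control arrays, with 0 calls. Their part in the Ccdc3 difference was not tested. In RNA from whole cultures, fewer cells of a type and less RNA per cell cannot be told apart.

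The other measured gene for a secreted protein was Itih5, a heavy chain of the inter-alpha-trypsin inhibitor family that binds hyaluronan in the matrix. It stood at 6.78, 5.37, 5.94 and 5.74 in knockout 1 to 4, against 5.48, 5.40, 6.48 and 5.48 in control 1 to 4. One array in each group, knockout 1 and control 3, was higher than the rest, and the groups overlapped. The log2 difference was 0.24 with a standard error of 0.38 (limma adjusted p = 0.914). It was above background on 3 knockout arrays and 2 control arrays, and its other probe on none. Itih2, a liver-made heavy chain of the same family, was not above background on any array, with a lowest detection p of 0.0702. Of 10 hepatocyte markers fixed for comparison, 7 were above background on no array, Alb and Apoa1 among them, and the 3 measured, Ttr, Serpina1a and Itih4, summed to between 189 and 583 linear units on the knockout and between 116 and 390 on the control arrays.

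Cdc123, an assembly factor for the translation initiation factor eIF2, had the largest positive difference. Its log2 signal was 11.05, 10.19, 10.58 and 10.92 in knockout 1 to 4, against 9.94, 10.25, 10.83 and 9.38 in control 1 to 4. Control 2 and control 3 lay inside the knockout range, and control 1 and control 4 lay below all knockout values. Knockout cells averaged 10.69 ± 0.38 and control cells 10.10 ± 0.61 (SD, n = 4 each), a log2 difference of 0.59 (standard error 0.33) and a 95% interval from -0.15 to 1.32 (limma adjusted p = 0.913). With the detected probes as a covariate it was 0.53 (limma adjusted p = 0.0886). Sec61a2, a channel subunit of the protein translocon of the endoplasmic reticulum, stood at 8.04, 7.81, 7.86 and 8.19 in knockout 1 to 4, against 7.64, 7.97, 7.86 and 8.03 in control 1 to 4. Its groups overlapped over most of their range, with a log2 difference of 0.10 and a standard error of 0.26 (limma adjusted p = 0.940). Hspa14, a ribosome-associated Hsp70 relative and the remaining gene of protein synthesis and folding, was not above background on any array.

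Of 7 genes of metabolism and mitochondria 4 were measured, and none passed. Atp5c1, the gamma subunit of mitochondrial ATP synthase, was measured most precisely of the 16 genes. It stood at 12.32, 12.30, 12.54 and 12.51 in knockout 1 to 4, against 12.30, 12.30, 12.33 and 12.22 in control 1 to 4. Knockout 3 and 4 were above every control value, while knockout 1 and 2 lay inside the control range. The log2 difference was 0.13 with a standard error of 0.11 and a 95% interval from -0.11 to 0.38 (limma adjusted p = 0.913). Sephs1, a selenophosphate synthetase relative, had a log2 difference of 0.10 and Echdc3, a gene of the enoyl-CoA hydratase family, of 0.05, with intervals from -1.07 to 1.27 and from -0.97 to 1.08. Control 3 was the highest array for both, at 8.60 and 7.38. Dhtkd1, a mitochondrial dehydrogenase subunit gene of lysine breakdown, Phyh, the peroxisomal phytanoyl-CoA hydroxylase, and Nmt2, an N-myristoyltransferase, were not kept.

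Nudt5, a Nudix hydrolase that cleaves ADP-ribose and the remaining metabolic gene, gave opposite results on its 2 probes. On probe ILMN_2880943 it stood at 6.37, 8.57, 8.24 and 6.66 in knockout 1 to 4, against 8.75, 8.24, 5.40 and 9.16 in control 1 to 4. On probe ILMN_1213725 it stood at 8.13, 6.91, 7.19 and 7.83 in knockout 1 to 4, against 6.85, 6.90, 7.70 and 6.93 in control 1 to 4. Knockout 1, knockout 4 and control 3 were the 3 lowest arrays on the first of these probes and the 3 highest on the other. The log2 difference was -0.43 with a 95% interval from -2.36 to 1.51 on the first, and 0.42 with one from -0.42 to 1.26 on the other (limma adjusted p = 0.929 and 0.913).

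Fbh1, a DNA helicase and F-box protein that acts at stalled replication forks, was the only gene of DNA repair measured and the closest neighbour of Il15ra. All 3 of its probes were above background on all 8 arrays. Probe ILMN_2811705, the brightest, stood at 10.25, 8.97, 9.26 and 9.85 in knockout 1 to 4, against 9.37, 9.45, 10.18 and 8.90 in control 1 to 4. Probe ILMN_2710538 stood at 7.88, 9.29, 9.34 and 8.54 in knockout 1 to 4, against 9.56, 9.40, 7.91 and 9.37 in control 1 to 4. Probe ILMN_1213458 stood at 6.66, 5.40, 6.41 and 7.34 in knockout 1 to 4, against 6.001, 6.20, 7.94 and 6.14 in control 1 to 4. Knockout 1, knockout 4 and control 3 were the 3 highest arrays on ILMN_2811705 and ILMN_1213458 and the 3 lowest on ILMN_2710538, and the groups overlapped on each probe. The log2 differences were 0.11, -0.30 and -0.12, with 95% intervals from -0.71 to 0.93, from -1.35 to 0.76 and from -1.35 to 1.11 (limma adjusted p = 0.951, 0.914 and 0.960). On ILMN_2811705 the difference was -0.13 between knockout 1 and 4 and the single array control 3, and -0.13 among the other 5 arrays, beside 0.11 over all 8. Ankrd16, an ankyrin-repeat gene on the other side of the shared promoter, was not above background on any array, and neither was the DNA-binding protein gene Kin beside Atp5c1.

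**Figure D2:**
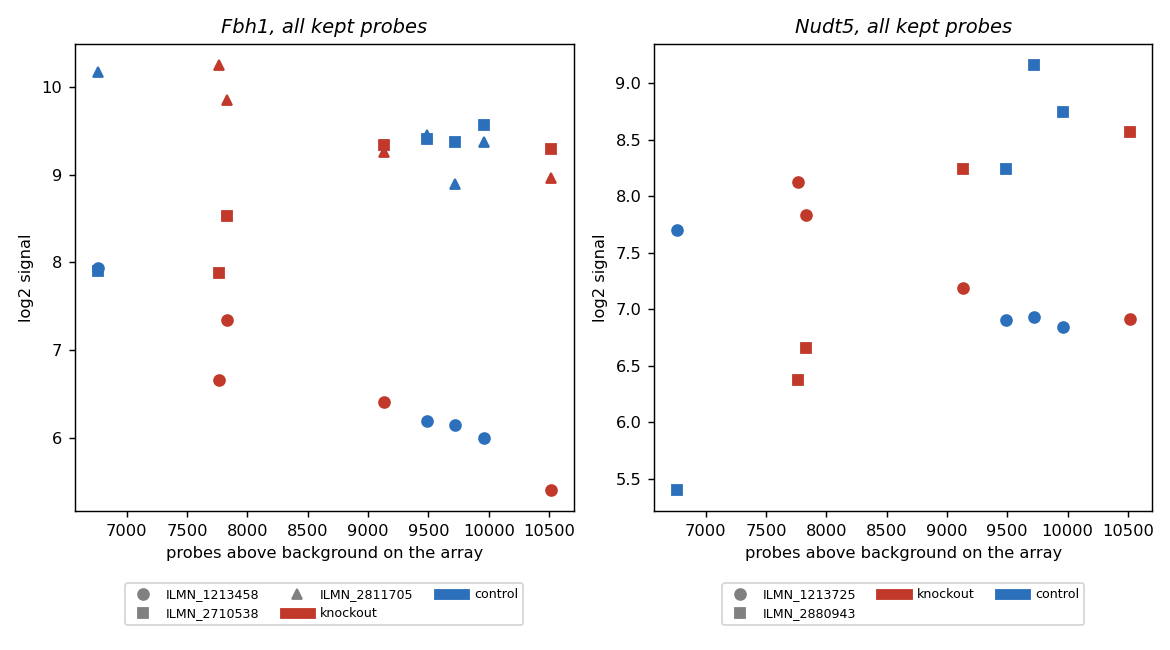
Normalised log2 signal (y axis) of each kept probe of Fbh1 (left) and Nudt5 (right) against the number of probes above background on the array (x axis), with 1 point per array and probe, symbols for probes and colours for groups. The 3 arrays on the left of each panel, control 3, knockout 1 and knockout 4, lie high on some probes of a gene and low on another, in both groups.

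The same 3 arrays stood apart at most of the measured genes. Knockout 1, knockout 4 and control 3 were all above the other 5 arrays at 10 of the 22 probes and all below them at 4, which is 63.6% of the probes, against 66.4% of all kept probes. The part of array quality in the differences between the groups was not tested for single probes beyond the fits given here. Taking the brightest probe of each gene, the difference between knockout and control had the same sign within these 3 arrays as within the other 5 for 8 of the 16 genes (50%, against 56.6% of all 7361 genes), with 1 control array in the set of 3. Without the 3 arrays, 8 of the 22 probes did not overlap between 2 knockout and 3 control arrays (36.4%, against 30.2% of all kept probes) and 0 had an adjusted p under 0.05 in limma, against 1.78% of all. With array weights, an estimate that did not converge, 5 of the 22 passed (Ccdc3, Cdc123, Atp5c1, Itih5 and Celf2), against 38.5% of all kept probes. With the replicate number as a block 0 of the 22 passed, against 0.0318%. With cyclic loess scaling the groups did not overlap for 1 gene, Ccdc3, against 6.19% of kept probes. With no filter on detection they did not for 2 genes, Hspa14 and Sfmbt2, neither of them above background on any array, against 4.12% of all probes.

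Genes of RNA processing were measured for 4 of 5 members, and none passed. Upf2, a core factor of nonsense-mediated mRNA decay, stood at 11.05, 10.49, 10.74 and 11.18 in knockout 1 to 4, against 10.85, 10.92, 11.42 and 10.95 in control 1 to 4, with a log2 difference of -0.17 and a standard error of 0.21 (limma adjusted p = 0.913). Celf2, a regulator of alternative splicing, stood at 12.01, 11.66, 11.85 and 12.03 in knockout 1 to 4, against 11.61, 11.79, 12.33 and 11.63 in control 1 to 4. Both its probes gave small differences, 0.05 and 0.03, with standard errors of 0.19 and 0.17 (limma adjusted p = 0.953 and 0.970), although control 3 was the highest array on one and the lowest on the other. Rpp38, a protein subunit of ribonuclease P, stood at 6.57, 6.26, 6.24 and 6.09 in knockout 1 to 4, against 6.39, 6.35, 6.10 and 6.72 in control 1 to 4, with a log2 difference of -0.10 and a standard error of 0.26 (limma adjusted p = 0.941). Prpf18, a pre-mRNA splicing factor, had a log2 difference of 0.04 with a 95% interval from -0.38 to 0.46. For all 4 genes the groups overlapped.

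Of 9 genes of signalling and membrane traffic 3 were measured, and none passed. Usp6nl, which inactivates the endosomal GTPase Rab5, stood at 6.01, 6.36, 6.57 and 5.92 in knockout 1 to 4, against 6.71, 6.55, 6.21 and 6.48 in control 1 to 4. Its log2 difference was -0.27 with a standard error of 0.27 (limma adjusted p = 0.913), and its other kept probe gave -0.14. Camk1d, a calcium/calmodulin-dependent kinase, had a log2 difference of 0.05 with a 95% interval from -0.85 to 0.96. Asb13, a substrate adaptor of a ubiquitin ligase, was the only gene measured of the 6 on chromosome 13. It stood at 10.54, 9.53, 9.69 and 10.26 in knockout 1 to 4, against 9.90, 10.05, 10.72 and 9.89 in control 1 to 4, with a log2 difference of -0.13 and a standard error of 0.30 (limma adjusted p = 0.935). Its dimmer probe gave -0.48 with a 95% interval from -1.20 to 0.24. The groups overlapped on both probes.

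The remaining 19 genes with a probe were not measured well enough to test. For 16 of them no probe was above background on any array, with a median lowest detection p of 0.363 over their probes. None of the 5 genes of chromatin and transcription, Suv39h2, Sfmbt2, Tasor2, Taf3 and Gata3, was above background anywhere. Prkcq, the T cell protein kinase C theta, and Gata3, a transcription factor of helper T cells, had lowest detection p-values of 0.450 and 0.417. Of 9 T and NK cell markers with a probe, 5 were above background on no array (Cd3g, Cd2, Cd247, Zap70 and Nkg7), and the 4 measured, Il7r, Cd3e, Klrb1c and Cd3d, had 0 calls and a median log2 difference of -0.25. Gdi2, a recycling factor of Rab GTPases found in most cells, was also not above background, on its single probe. Calml3, a calmodulin-like gene on chromosome 13, was above background on 0 knockout arrays and 3 control arrays, Dhtkd1 on 1 knockout array, and Fam107b on 1 array of each group. Over all 28 probes not kept, log2 differences lay between -0.25 and 0.25, but a probe at background bounds no change in the gene.

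**Figure D3:**
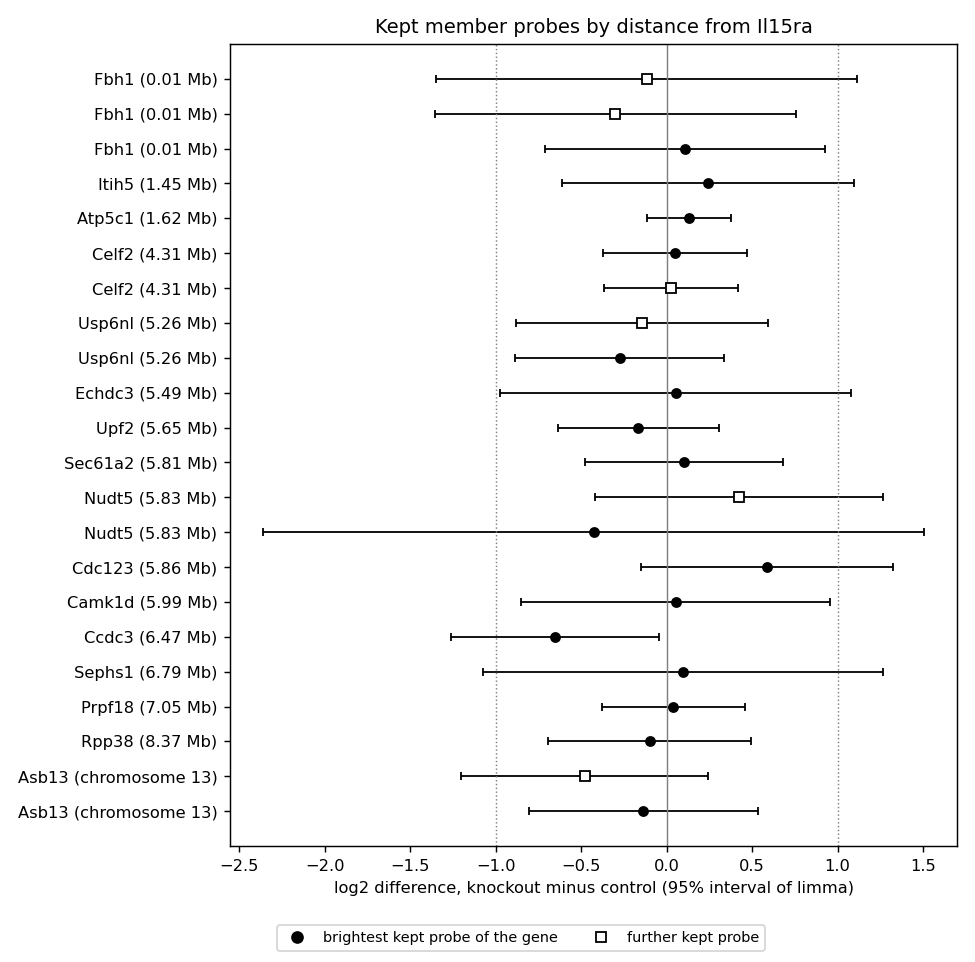
Log2 difference of knockout minus control (x axis) with the 95% interval of limma for the 22 kept probes, ordered from the gene nearest to Il15ra at the top, with the chromosome 13 gene at the bottom. Filled circles are the brightest kept probe of a gene and open squares its further probes, and dotted lines mark a 2-fold difference. All intervals but that of Ccdc3 include 0.

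The intervals show which sizes of change these 8 arrays still allow for each gene. For 10 of the 16 genes the 95% interval on the brightest probe lay between -1 and 1, so it held no 2-fold change in either direction, and for 3, Atp5c1, Celf2 and Prpf18, it lay between -0.5 and 0.5. For Ccdc3, Cdc123, Itih5, Nudt5, Sephs1 and Echdc3 it reached past 1 or -1. Fbh1 and Asb13 were among the 10, but on their further kept probes the interval reached past 1 or -1 too. Over all 22 kept probes, 12 had an interval between -1 and 1. On the brightest probes the standard errors ran from 0.11 to 0.86 with a median of 0.28, against 0.36 for all genes. The intervals are on a log2 scale to which 16 signal units were added, so for dim genes such as Rpp38, Usp6nl and Itih5 they understate the change.

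Genes of the same stretch of chromosome 2 that are not on the list also had 0 probes with an adjusted p under 0.05. Within 2 Mb of Il15ra there were 4 further kept probes, with 0 passing and differences between -0.46 and 0.36, and from 2 to 10 Mb there were 10, with 0 passing and differences between -0.53 and 1.03. With the listed genes included, 34 kept probes lay within 10 Mb, of which 0 had an adjusted p under 0.05, 1 an unadjusted p under 0.05 (2.94%) and 1 no overlap (2.94%). The probe without overlap was 1 of the 9 kept within 2 Mb (11.1%). Farther along chromosome 2 there were 650 kept probes, of which 3 passed, 5.08% had an unadjusted p under 0.05 and 3.69% did not overlap. On the other chromosomes 43 of 8207 passed, 6.31% had an unadjusted p under 0.05 and 5.06% did not overlap. The median size of the difference without its sign was 0.20 within 10 Mb, 0.27 farther along the chromosome and 0.28 elsewhere, and these shares were not tested against each other. The 3 passing probes of chromosome 2 belonged to Frzb, 68.7 Mb away, Grem1, 102 Mb away, and Rasgrp1, 106 Mb away, and within 20 Mb 0 of 127 kept probes passed.

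The probe without overlap was that of Pter, a phosphotriesterase-related gene 1.19 Mb away on the telomeric side, singled out after its values were seen. It stood at 8.82, 8.57, 8.88 and 8.75 in knockout 1 to 4, against 8.35, 8.41, 8.53 and 8.29 in control 1 to 4, so that every knockout value was above every control value by a small margin. Knockout cells averaged 8.75 ± 0.13 and control cells 8.39 ± 0.10 (SD, n = 4 each). The log2 difference was 0.36 with a standard error of 0.23 and a 95% interval from -0.15 to 0.87 (limma adjusted p = 0.913). That standard error draws on other probes of similar signal as well as on Pter itself.

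**Figure D4:**
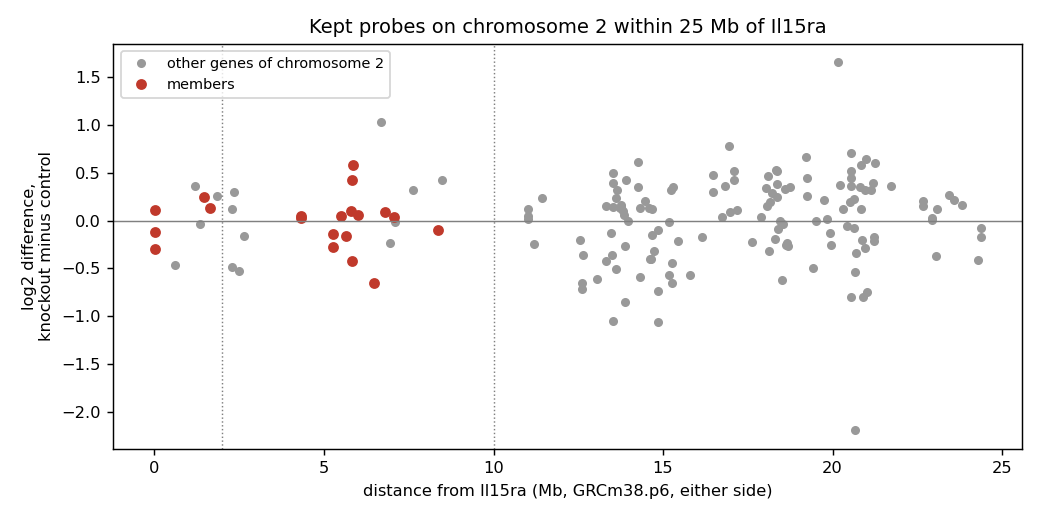
Log2 difference of knockout minus control (y axis) for each kept probe on chromosome 2 up to 25 Mb from Il15ra on either side, by the distance between the genes in Mb (x axis), with listed genes in red, other genes in grey and dotted lines at 2 and 10 Mb. The probes within 10 Mb lie between -0.65 and 1.03, with the 3 probes of Fbh1 at the left edge between -0.30 and 0.11.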

How the data were processed

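RNA from stellate cell cultures, 4 IL15Ra-knockout and 4 control samples, was measured on Illumina arrays. The deposited table holds, for every probe and array, a mean bead signal, which is an unnormalised linear intensity, and a detection p-value, per the file headers. A second deposited table holds intensities that the authors quantile normalised in GenomeStudio, per the series' design text, with version 3 in the submitters' processing notes. Array medians of the unnormalised signal were 113.6 to 149.8, and the number of arrays limits the precision.

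Groups and replicate numbers came from the sample titles. The platform annotation names 1 gene for 23978 of 25697 probes, several for 0, and leaves 1719 unnamed. Entrez numbers tied 23971 probes to RefSeq genes of GRCm38.p6 and updated 8 symbols. The array files state no build, so distances are those of that annotation. The neqc function of limma 3.58.1 (R 4.3.3) corrected background, with offset 16 and negative-control estimates derived from the detection p-values, and gave quantile-normalised log2 values. Kept probes (4 arrays or more with a detection p under 0.05) were fitted with lmFit and eBayes with a trend and no block, and p-values were Benjamini-Hochberg adjusted over all of them, with a threshold of 0.05. The fit was tested on simulated data with 200 changed probes. Each gene is given on its brightest kept probe, and further probes where they disagree.

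The genes, windows and marker lists were chosen with earlier results of these data known. Full values are given for genes that passed, genes whose groups did not overlap and the 12 with the smallest p. Alternatives changed the background correction, offset, scaling, filter, variance model, array weights, block, covariate, probe summary and arrays used. The labels name no pairing by replicate number, so the samples were treated as unpaired. Deviations of same-numbered arrays from their group means correlated at -0.66, 0.60, -0.75 and -0.82. Because knockout 1, knockout 4 and control 3 stood apart at most kept probes, these values cannot show whether same-numbered arrays were paired. Of the marker lists, the stellate list (7 measured genes, median log2 difference -0.13) had 1 call higher and 1 lower. The macrophage (6 genes, -0.05), sinusoidal endothelial (3 genes, -0.74) and mesothelial (4 genes, 0.57) lists had 0 calls. So did the hepatocyte (3 genes, 0.86) and the T and NK cell (4 genes, -0.25) lists. The mesothelial genes summed to between 3315 and 4614 linear units on the knockout arrays, against 2368 to 2872 on the control arrays.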

Additional observations from a re-analysis of the deposited data

Results flagged for a closer look

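Among the 22 kept probes, 44 groups of 4 arrays were tested for an array far from the other 3. Of these, 6 were flagged, where chance flags about 5% of independent groups. Control 3, the array with the fewest detected probes, was the distant array in 5 of them. It stood at 7.91 on Fbh1 probe ILMN_2710538, where the other controls lay between 9.37 and 9.56, and at 7.94 on Fbh1 probe ILMN_1213458, where they lay between 6.001 and 6.20. It stood at 7.38 for Echdc3 (others 5.81 to 5.99), at 6.48 for Itih5 (5.40 to 5.48) and at 7.70 on Nudt5 probe ILMN_1213725 (6.85 to 6.93). The remaining one was knockout 1 on Asb13 probe ILMN_2674383, at 5.34 where the other knockout arrays lay between 6.25 and 6.41. The groups are not independent, since all probes share the same arrays. The share flagged among all kept probes was not counted, so the flags are not read as a trait of these genes. Knockout 1, knockout 4 and control 3 stood apart from the rest at 66.4% of all kept probes.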

How the results depend on the processing

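Under every alternative run, the number of listed probes with an adjusted p under 0.05 was 0, except for 5 with array weights and 1, Ccdc3, with the detected probes as a covariate, and among all kept probes within 10 Mb of Il15ra it was 0 except for 11 and 1 under the same alternatives. The weights did not converge and 3632 of all kept probes then passed (38.5%). Over all kept probes the number that passed, 50 as reported, was 108 with median scaling, 95 with cyclic loess, 17 with the stricter detection filter, 670 with the covariate and 168 without knockout 1, knockout 4 and control 3, and between 22 and 125 with each array left out, the highest without control 3. With the replicate number as a block 3 of all kept probes and 0 of the listed ones passed. Listed genes whose groups did not overlap were 0 as reported, beside 5.02% of all kept probes. They numbered 1 with cyclic loess (6.19% of all) and 2 with no filter (4.12%). Without the 3 arrays they numbered 7 of 16, beside 30.2% of all kept probes. That count took the brightest probe of each gene on the arrays left, which for Fbh1 was ILMN_2710538. With each array left out, listed genes without overlap numbered between 0 and 2. They were 2 without knockout 1 (7.23% of all kept probes), 1 without control 3 (20.2%), and 0 in the other 6 settings (5.65% to 7.56%).

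Differences of other sign were -0.0835 with median scaling and -0.0420 without the 3 arrays for Sec61a2, -0.0276 with cyclic loess for Celf2, and -0.0125 with median scaling, -0.11 with array weights, -0.12 without the 3 arrays and -0.10 as the mean over probes for Fbh1. With each array left out, differences ran from -0.30 to 0.0593 for Asb13, -0.0251 to 0.21 for Celf2, -0.11 to 0.33 for Fbh1, -0.0307 to 0.53 for Itih5 and -0.21 to 0.0126 for Rpp38. They kept their sign for Ccdc3, from -0.82 to -0.47, Cdc123, from 0.36 to 0.81, and the brightest Nudt5 probe, from -1.25 to -0.03. The other Nudt5 probe had a difference of 0.42 over all 8 arrays, and the mean over both probes was -0.0015. Signs were also kept for Atp5c1, from 0.09 to 0.17, Sec61a2, from 0.03 to 0.16, Upf2, from -0.27 to -0.04, and Usp6nl, from -0.39 to -0.18. The cause of these moves was not tested. Signals near background limit what could be seen for the 19 genes not kept.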
